A study of Mus musculus with 47 samples.

Results

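Olfactory receptor genes (Olfr genes in mice) code for the G protein-coupled receptors with which sensory neurons of the nose detect odorants. They form the largest gene family of the mouse, lie in clusters along the chromosomes, and are switched on one at a time in each olfactory neuron. Most members are known as silent in liver, which makes their probesets on a liver array a gauge of what an array reads where little or no transcript is present. A few members have been reported outside the nose in mice, among them Olfr16 (MOR23) in sperm and muscle, Olfr15 in pancreatic islets and Olfr734, a receptor for the hormone asprosin, in liver.

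The members were chosen by symbol alone. Of 9815 tested transcripts, 213 probesets had a single gene symbol made of Olfr and a number, and the brightest probeset of each gene was kept, which left 211 genes. Only Olfr54 and Olfr263 had a 2nd probeset. A further 33 probesets carried several symbols at once, mostly of near-identical Olfr paralogues, and 2 carried pseudogene symbols. These were not counted as members.

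RNA came from the livers of female, immune-competent, hairless SKH:QS mice, 1 array per mouse, with 47 Affymetrix Mouse Gene 1.0 ST arrays in 8 groups. The groups were Organic + UVR, Organic-UVR, TiO2 + UVR, TiO2-UVR, ZnO + UVR, ZnO-UVR, Control + UVR and Control-UVR, with 6 arrays in each except ZnO + UVR, which had 5. Organic sunscreen held organic filters only, the TiO2 product held TiO2 nanoparticles with organic filters, and the ZnO product held ZnO nanoparticles as its sole active ingredient. All groups, with or without UVR, had 30 treatments over 36 weeks. Control mice received no sunscreen and, per the paper, were sham treated. The +UVR groups received 29 kJ/m2 of UVR per treatment. The paper describes 1 cage for each treatment group while the sample labels describe individual housing, so cage and treatment cannot be told apart. In the same arrays 17 of 26 listed hepatocyte markers were measured, at levels of 5.17 to 13.3, with a median of 12.1 on the log2 scale of robust multi-array average (RMA), which is the scale of every level below. One array, Organic-UVR replicate 1, stood apart from the rest, and results that rest on it are given with and without it.

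All 211 genes matched the RefSeq gene table of build GRCm38.p6. They lay on chromosomes 1 (26 genes), 10 (56), 11 (69), 13 (11), 14 (35), 15 (8) and 16 (6), and fell into 18 clusters when genes within 1 Mb of each other were joined. The largest cluster held 48 genes, from Olfr9 to Olfr827 on chr10:128989914-130211128. Another, on chr11:73350859-74365609, held 27 genes from Olfr20 to Olfr412. On chromosome 14, 32 genes from Olfr722 to Olfr1507 lay on chr14:49894258-52495695. The annotation placed 12 of the 211 genes over another gene, among them Olfr314 over the protein-coding gene Fam183b, Olfr16 over the long non-coding RNA Gm35686, and Olfr1507, Olfr1508 and Olfr1509 inside the T cell receptor alpha locus Tcra. For these 12 a probeset level may include transcript of the other gene, which was not tested.

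The sequence around the annotated start is shown for 2 genes that the results below turn on, Olfr16, the one member called lower in any comparison, and Olfr1393, the member called higher by the largest difference. The windows run from 250 bases before to 50 bases after the start in RefSeq (GRCm38.p6, gene strand, 5′ to 3′), at chr1:172956518-172956817 (+ strand) for Olfr16 and chr11:49279900-49280199 (+ strand) for Olfr1393. Capitals mark matches on either strand to 4 motifs, the Ebf core CCCNNGGG, the homeodomain core TAATTA, its variant TAATGA and the TATA box letters TATAAA.
Olfr16: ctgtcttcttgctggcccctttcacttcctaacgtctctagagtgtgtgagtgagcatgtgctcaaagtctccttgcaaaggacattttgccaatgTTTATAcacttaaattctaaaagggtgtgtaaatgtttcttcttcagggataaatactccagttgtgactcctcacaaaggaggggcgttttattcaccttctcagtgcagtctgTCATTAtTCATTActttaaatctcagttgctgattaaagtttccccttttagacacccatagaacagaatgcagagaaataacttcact
Olfr1393: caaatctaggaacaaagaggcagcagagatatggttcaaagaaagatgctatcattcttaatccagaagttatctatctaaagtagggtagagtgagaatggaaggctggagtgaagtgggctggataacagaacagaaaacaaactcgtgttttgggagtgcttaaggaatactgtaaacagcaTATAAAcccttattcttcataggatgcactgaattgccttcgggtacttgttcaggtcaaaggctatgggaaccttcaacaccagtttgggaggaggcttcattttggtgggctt

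Ebf (O/E) factors and homeodomain factors such as Lhx2 are known regulators of olfactory receptor genes in olfactory neurons. Olfr16 held 3 matches, 2 of them TAATGA and 1 TATAAA, and Olfr1393 held 1, a TATAAA. A start window was found for 178 of the 211 genes. TAATGA occurred in 60 of the 178 Olfr genes (33.7%), against 11.3% of all 27025 genes in the table, and TAATTA in 29 (16.3%), against 6.12%. TATAAA occurred in 64 (36.0%), against 15.7%, while CCCNNGGG occurred in 4 (2.25%), against 15.4%. The Olfr windows were AT-rich, with a median GC content of 38.2%, against 52.7% for all 32851 windows, and the shares were not compared at equal GC content. An annotated start can be the start of a coding exon in this family, so a window need not be the promoter, and a match is only a run of letters. Over the 178 genes, level on the array increased with the GC content of the window (Pearson r = 0.49, Spearman rho = 0.52, a description across genes, which are not independent).

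On the array the Olfr genes were dim but not uniform. Their mean levels over the 47 arrays had a median of 3.57, with 10th and 90th percentiles of 2.53 and 4.89, against a median of 5.28 for the 9602 other tested transcripts. Of the 211 genes, 195 lay below the median of all tested transcripts (5.24) and 138 below the 25th percentile (4.12), and 1 lay above the 75th percentile. The median Olfr gene stood at percentile 15.9 of the tested transcripts. Levels of different probesets depend on how well their probes bind as well as on transcript, so they order brightness and not amounts. In bulk liver, fewer expressing cells and less RNA per cell cannot be told apart.

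**Figure D1:**
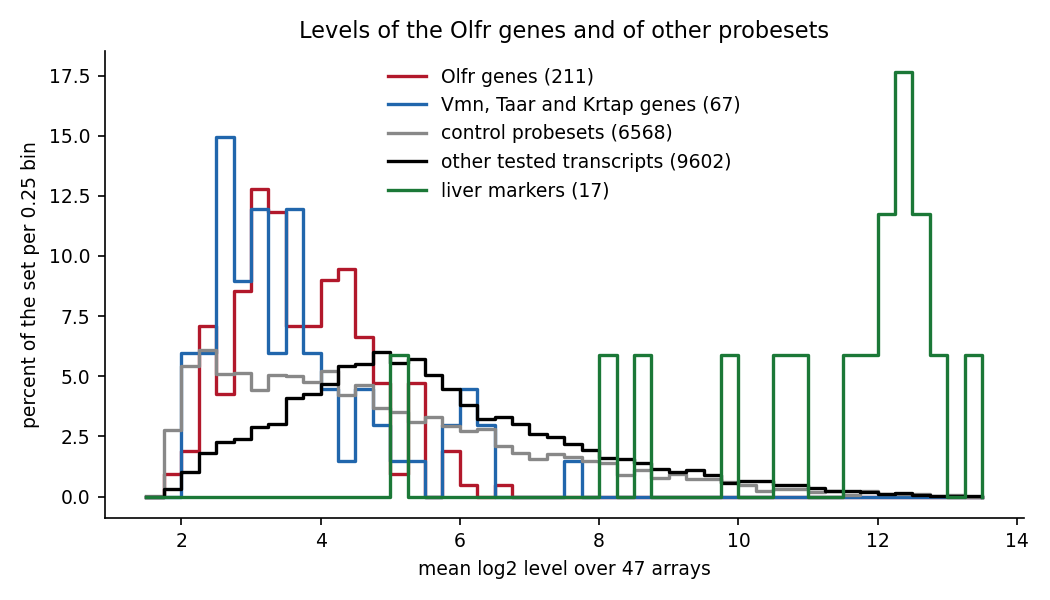
Distribution of mean log2 level over 47 arrays (x axis) as the percent of each set per bin of 0.25 (y axis), for the 211 Olfr genes, 67 genes of other sensory or hair families, 6568 control probesets, 9602 other tested transcripts and 17 liver markers. The Olfr genes lie at the dim end, with a median of 3.57, near the 67 genes (3.37) and far from the liver markers (12.1).

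Other families that liver is not known to use had levels on both sides of the Olfr median. The 67 measured genes for vomeronasal receptors (Vmn1r and Vmn2r), trace amine-associated receptors (Taar) and hair keratin-associated proteins (Krtap) had a joint median of 3.37. By family the median was 2.90 for 29 Vmn1r genes, 3.37 for 3 Vmn2r genes, 3.32 for 13 Taar genes and 4.63 for 22 Krtap genes, whose 90th percentile of 6.24 lay above that of the Olfr genes. The 6568 control probesets, whose types are not classified here, had a median of 4.31, and 154 Olfr genes lay below it. The machinery of olfactory neurons was poorly covered, with 5 of 25 listed genes measured. Rtp1, which carries receptors to the cell surface, stood at 3.97 and Ebf1, a transcription factor of these neurons, at 3.61. Adcy3, the adenylyl cyclase of odour signalling, stood at 5.02, Ncam2, an adhesion molecule, at 5.72 and Ric8b, a partner of the olfactory G protein, at 6.76. None of the 5 was called in any of the 10 comparisons, and such defining markers as Omp and Cnga2 were not analysed here.

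Brightness differed between chromosomes and between clusters of one chromosome. The median level was 3.12 for the 56 genes of chromosome 10 and 3.30 for the 35 genes of chromosome 14, against 4.19 for the 26 genes of chromosome 1 and 4.19 for the 69 genes of chromosome 11. Within chromosome 11 it was 3.30 for the cluster of 27 genes from Olfr20 to Olfr412. It was 4.42 there for the cluster of 21 genes from Olfr30 to Olfr225. Subfamilies by the MOR number in the RefSeq synonyms, given for 207 genes, differed as well. The 26 MOR256 genes had a median of 4.27 and the 17 MOR135 genes a median of 3.06. Position and sequence relationship go together in this family, since close paralogues often lie side by side.

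The brightest member was Olfr314 (chr11:58786139-58787269), at 6.73 over all arrays. It ran between 6.24 and 7.49 on single arrays, so the dimmest array for this gene was still brighter than the mean of every other member. Olfr314 is the member that overlaps Fam183b. Olfr54 followed at 6.05, Olfr1394 at 5.91, Olfr462 at 5.88 and Olfr401 at 5.78, and all of these lie on chromosome 11. The place of Olfr54 rests on its brighter probeset. Its 2nd probeset averaged 3.74, at percentile 18.5 of the tested transcripts and near the family median. At the other end Olfr806 averaged 1.96, Olfr804 1.98, Olfr722 2.06, Olfr183 2.14 and Olfr747 2.19. Olfr806 ranged from 1.47 to 2.80 over the 47 arrays.

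The 3 members named above as reported outside the nose were looked up after the levels had been seen. Olfr734, the asprosin receptor, averaged 3.52, at percentile 15.0 of the tested transcripts and close to the family median. Its level was 3.41 ± 0.29 in ZnO + UVR (SD, n = 5) and 3.42 ± 0.28 in ZnO-UVR (SD, n = 6). It was 3.53 ± 0.15 in Organic + UVR, 3.66 ± 0.48 in Organic-UVR, 3.53 ± 0.13 in TiO2 + UVR, 3.53 ± 0.11 in TiO2-UVR, 3.64 ± 0.27 in Control + UVR and 3.46 ± 0.14 in Control-UVR (SD, n = 6 each). The group means ran from 3.41 to 3.66, beside SDs within groups of 0.11 to 0.48. The largest difference from Control-UVR was 0.19 ± 0.13 (SE) in Organic-UVR, with an adjusted p of 0.411 by limma. Values of Olfr734 in Organic-UVR without replicate 1 are not given here. Olfr15 averaged 3.22. Olfr16 averaged 5.26, at percentile 50.4 and above the 90th percentile of the family.

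A model with terms for group and replicate number left over a spread between arrays, 1 per mouse. It was slightly larger for the Olfr genes than for the other transcripts. The median of this residual SD was 0.280 for Olfr genes, against 0.249 for the other tested transcripts and 0.247 for the 2314 other transcripts in the dimmest 25%. Olfr745 had the largest residual SD (0.519), followed by Olfr166 (0.490) and Olfr316 (0.490). In Organic-UVR Olfr745 read 6.47, 3.76, 3.52, 4.68, 3.71 and 3.78 in replicates 1 to 6, and in Control-UVR 3.62, 3.62, 3.69, 3.81, 4.53 and 3.54. Replicate 1 of Organic-UVR was the highest of all 47 arrays for this gene. Olfr166 peaked elsewhere, at 5.83 in Organic + UVR replicate 4 and at 5.88 in Control + UVR replicate 1.

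As a gauge of background, the median level of the 211 genes was computed for each array. It lay between 3.28 and 4.38 over the 47 arrays. Organic-UVR replicate 1 was the highest at 4.38, while the other 5 arrays of that group read 3.53, 3.62, 3.68, 3.42 and 3.47. TiO2-UVR replicate 1 followed at 4.00 and Organic + UVR replicate 4 at 3.97. The lowest was TiO2-UVR replicate 4 at 3.28, so this group held both a high and the lowest array.

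In Organic + UVR the 6 array medians were 3.49, 3.73, 3.78, 3.97, 3.48 and 3.67. In Control + UVR they were 3.78, 3.45, 3.60, 3.77, 3.80 and 3.71, against 3.52, 3.53, 3.45, 3.65, 3.65 and 3.43 in Control-UVR. In each of Organic + UVR and Control + UVR 4 of 6 arrays lay above all Control-UVR arrays, and 2 fell within the Control-UVR range. The mean was 3.54 ± 0.08 in ZnO + UVR (SD, n = 5). In the groups of 6 it was 3.69 ± 0.19 in Organic + UVR, 3.68 ± 0.35 in Organic-UVR, 3.59 ± 0.10 in TiO2 + UVR, 3.59 ± 0.23 in TiO2-UVR, 3.53 ± 0.12 in ZnO-UVR, 3.68 ± 0.14 in Control + UVR and 3.54 ± 0.09 in Control-UVR (SD, n = 6 each). Without replicate 1 the Organic-UVR mean was 3.54 ± 0.11 (SD, n = 5), level with Control-UVR.

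**Figure D2:**
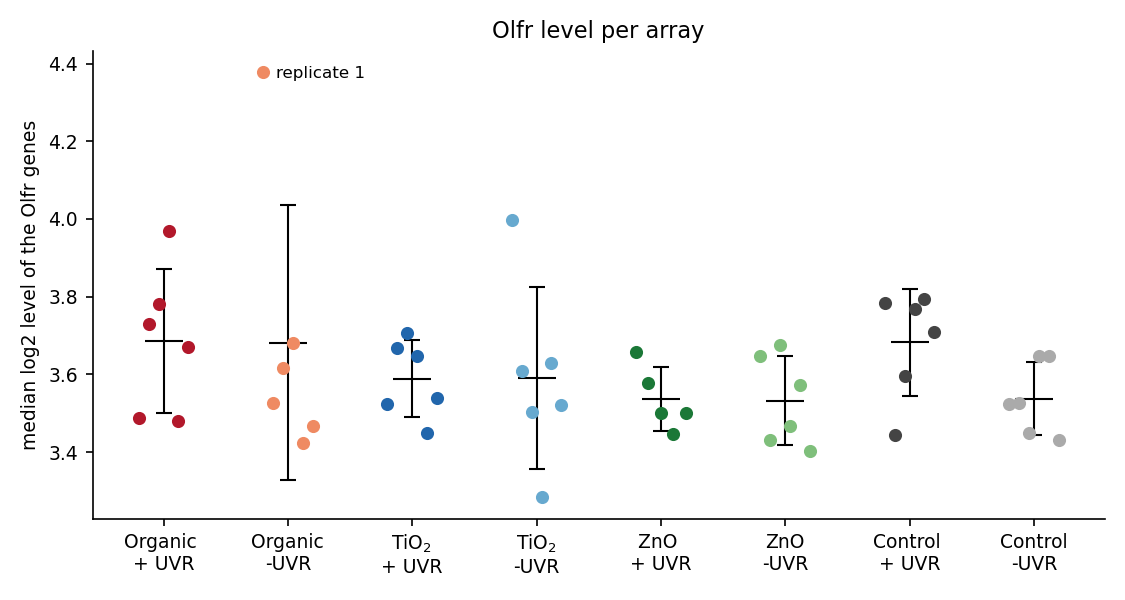
Median log2 level of the 211 Olfr genes (y axis) on each of the 47 arrays, by group (x axis), 1 point per array with the mean and SD of the group. Organic-UVR replicate 1 reads 4.38, above the range of 3.28 to 4.00 of the other 46 arrays, and the arrays of every group overlap those of Control-UVR.

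The Olfr level moved with the range of the array. The slope of each array, found by regressing its values on the mean of all arrays over tested transcripts other than Olfr genes, was used as the measure of range. A slope under 1 means that dim transcripts read higher and bright ones lower than on the average array. Organic-UVR replicate 1 had a slope of 0.774, Organic + UVR replicate 4 one of 0.896 and TiO2-UVR replicate 1 one of 0.911, and these were the 3 arrays with the highest Olfr medians. TiO2-UVR replicate 4, with the lowest Olfr median, had the steepest slope at 1.06.

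**Figure D3:**
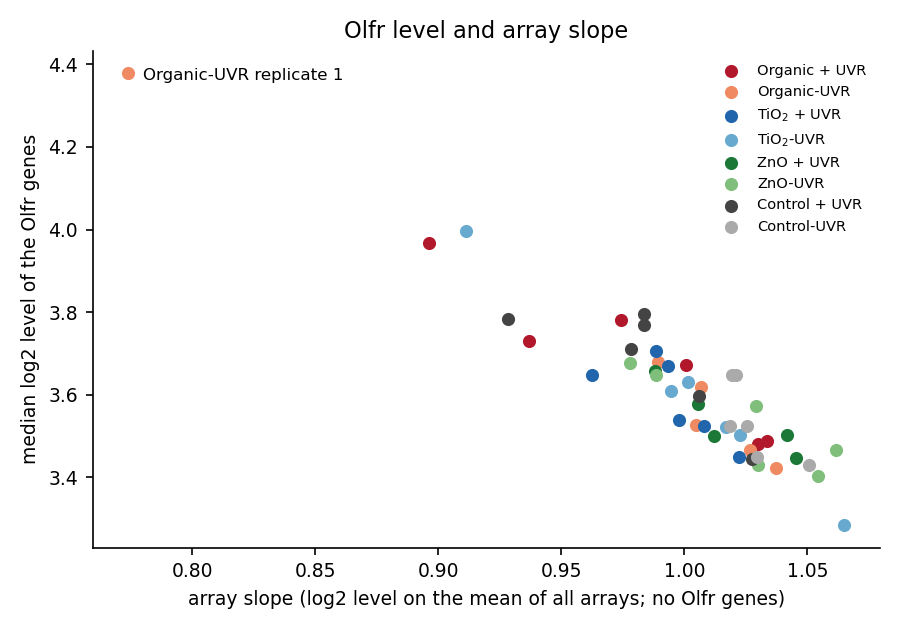
Median log2 level of the 211 Olfr genes (y axis) against the slope of the array on the mean of all arrays, computed without Olfr genes (x axis), 1 point per array, coloured by group. The arrays fall along 1 descending line (Pearson r = -0.94 over 47 arrays), with Organic-UVR replicate 1 at its upper left end.

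Over the 47 arrays Pearson's r between Olfr median and slope was -0.94 and Spearman's rho -0.92. With group means removed r was -0.94, and without the 2 arrays farthest from the median slope it was -0.89. Within the 7 groups of 6 arrays r lay between -0.72 in Control-UVR and -0.996 in TiO2-UVR. Both measures come from the same arrays and the same normalization, so these values are a description. The Olfr median also ran with the median of the 67 Vmn, Taar and Krtap genes (r = 0.93) and with that of the dimmest 25% of other transcripts (r = 0.91). It ran weakly with the median of the control probesets (r = 0.33) and inversely with that of the liver markers (r = -0.64, Spearman's rho = -0.42). Without the 2 arrays farthest from the median of the liver marker values, r was -0.47 and rho -0.38.

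The distance from the Olfr median to the liver marker median gives the working range of an array. It was 7.14 on Organic-UVR replicate 1 and between 7.84 and 8.93 on the other 46 arrays. Its mean was 8.31 ± 0.58 in Organic-UVR and 8.53 ± 0.22 in Control-UVR (SD, n = 6 each), and 8.55 ± 0.10 in Organic-UVR without replicate 1 (SD, n = 5). On Organic-UVR replicate 1 both ends moved inward, with liver markers at 11.5, the lowest of the 47 arrays, and 46 Olfr genes above the array median of tested transcripts, where the other arrays had 7 to 28.

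Single Olfr genes moved together from array to array. With group and replicate number effects removed, the mean correlation over the 22155 pairs of Olfr genes was 0.33, and 93.7% of pairs were above 0. The mean was 0.31 for pairs of the 67 Vmn, Taar and Krtap genes, 0.21 for pairs among every 5th other transcript of the dimmest 25%, and 0.00 for pairs among every 20th other tested transcript. The Olfr mean was 0.25 without Organic-UVR replicate 1. The 17 liver markers, which are highly expressed, had a mean of 0.47.

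The shift of the family was then read from the fitted log2 differences between groups. The differences come from a single limma model of the 47 arrays with terms for group and for replicate number, and a gene was called where its p, adjusted by Benjamini-Hochberg over 9815 transcripts, was under 0.1. The 7 comparisons with Control-UVR share its 6 arrays, so their shifts are not independent of each other. The median 95% interval of a single Olfr gene reached 0.319 to either side of its difference, and 0.337 with ZnO + UVR.

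Organic-UVR showed the largest shift. The median Olfr difference from Control-UVR was 0.15, and 186 of 211 genes (88.2%) were higher, against a median of 0.03 and 55.4% of all tested transcripts. Of the dimmest 25% of other transcripts, 74.1% were higher. The Olfr median was 0.07 after quantile normalization, 0.07 with arrays centred on their medians, and -0.04 with the slope as a covariate. It was 0.02 without Organic-UVR replicate 1, with 130 of 211 genes higher. In Organic + UVR the median difference from Control-UVR was 0.14, with 179 of 211 genes higher (84.8%). The share higher was 55.0% over all transcripts and 82.3% over the dimmest 25% of other transcripts. The Olfr median was 0.04 after quantile normalization, 0.08 with centred arrays and -0.04 with the slope as a covariate. It was 0.08 without Organic + UVR replicate 4, the array of that group with the lowest slope, and 0.21 without replicate 1. Control + UVR had nearly the same values, a median of 0.14 and 183 genes higher (86.7%). Here 54.8% of all transcripts and 79.4% of the dimmest 25% of other transcripts were higher. The Olfr median was 0.04 after quantile normalization, 0.09 with centred arrays and -0.01 with the slope as a covariate.

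The other groups shifted less. The median difference from Control-UVR was 0.06 in TiO2 + UVR (160 genes higher), which turned to -0.01 after quantile normalization and -0.00 with centred arrays, and 0.10 in TiO2-UVR (154 higher). In TiO2 + UVR it was 0.10 without TiO2 + UVR replicate 1, and 0.02, 0.09 and 0.10 without Control-UVR replicates 1, 4 and 5. In TiO2-UVR it was 0.03 without TiO2-UVR replicate 1, 0.15 without TiO2-UVR replicate 4 and 0.06 without Control-UVR replicate 1. The median was 0.01 in ZnO + UVR (114 higher) and 0.01 in ZnO-UVR (110 higher), near an even split of the 211 genes. Between +UVR and -UVR mice of one product the median was -0.03 for Organic (92 genes higher), -0.02 for TiO2 (93 higher) and -0.01 for ZnO (100 higher). Without Organic-UVR replicate 1 the value for Organic + UVR against Organic-UVR was 0.10, with 159 genes higher. The medians of ZnO and those within a product took both signs when single arrays were left out, from -0.03 to 0.04 in ZnO + UVR and -0.03 to 0.03 in ZnO-UVR against Control-UVR, and from -0.07 to 0.10 for Organic, -0.08 to 0.04 for TiO2 and -0.04 to 0.03 for ZnO within a product.

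**Figure D4:**
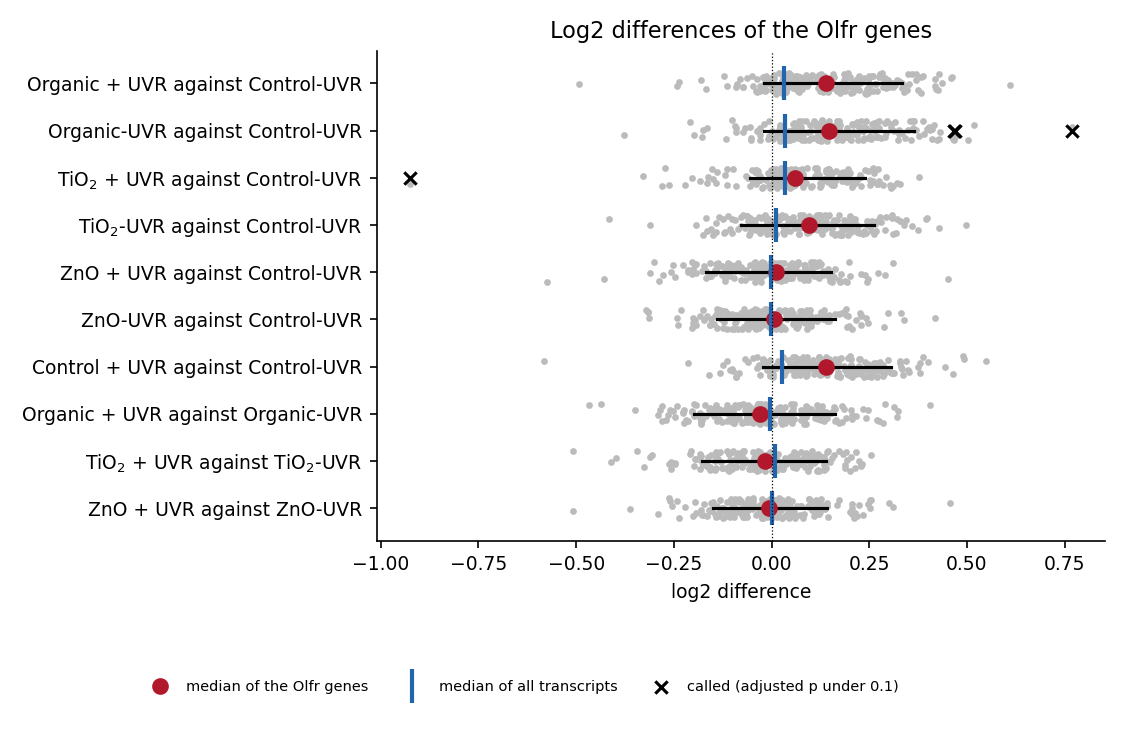
Fitted log2 difference (x axis) of each of the 211 Olfr genes (grey points) in the 10 comparisons (y axis), with the Olfr median (red), the 10th to 90th percentile (black line), the median of all 9815 transcripts (blue) and called genes (crosses). The Olfr medians of Organic + UVR, Organic-UVR and Control + UVR against Control-UVR are 0.14 to 0.15, and each is below 0 with the array slope as a covariate.

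Other dim probesets had shifts of similar size, while the few Olfr genes of middle level shifted more than transcripts of their own level. In Organic + UVR the median difference from Control-UVR was 0.12 for the dimmest 25% of other transcripts and 0.16 for the 67 Vmn, Taar and Krtap genes. In Organic-UVR these medians were 0.09 and 0.14 (0.03 and 0.03 without its replicate 1), and in Control + UVR 0.11 and 0.13. The brightest 10% of tested transcripts ran the other way, with median differences from Control-UVR of -0.13 in Organic + UVR, -0.21 in Organic-UVR (-0.07 without its replicate 1) and -0.11 in Control + UVR. Liver markers, at the top of the scale, had medians of 0.01 in Organic + UVR and 0.00 in Control + UVR. Their median was -0.06 in Organic-UVR (0.01 without its replicate 1). None of the 17 was called in any comparison. Tested transcripts were also cut by level into 10 bins. In the dimmest (63 Olfr genes) the Olfr median was 0.13 in Organic + UVR, against 0.11 for the whole bin. In the bins at median levels 5.46 (10 Olfr genes) and 5.98 (5) it was 0.29 against 0.04 and 0.31 against -0.06. These were 0.26 against 0.08 and 0.35 against -0.002 in Organic-UVR (replicate 1 kept). In Control + UVR they were 0.14 against 0.03 and 0.17 against -0.04. The cause was not tested.

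Few single Olfr genes passed the test. In Organic-UVR 3 of 211 genes were called against Control-UVR (1.42%), all higher, beside 3.27% of all tested transcripts called and 0.744% called higher. In TiO2 + UVR 1 was called, lower, beside 0.693% called and 0.52% called lower. No Olfr gene was called in Organic + UVR (1.65% of all transcripts called), Control + UVR (0.0509%), or TiO2-UVR, ZnO + UVR and ZnO-UVR (0% each). Nor was any in TiO2 + UVR against TiO2-UVR (0.652%), or in Organic + UVR against Organic-UVR and ZnO + UVR against ZnO-UVR (0% each).

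At an unadjusted p under 0.05 by limma the counts of Olfr genes against Control-UVR were 18 in Organic + UVR (8.53%, beside 17.1% of all transcripts), 27 in Organic-UVR (12.8%, beside 19.1%), 6 in TiO2 + UVR (2.84%, beside 10.2%) and 9 in TiO2-UVR (4.27%, beside 3.86%). They were 2 in ZnO + UVR (0.948%, beside 2.81%), 0 in ZnO-UVR (beside 1.52%) and 19 in Control + UVR (9.005%, beside 12.8%). Between +UVR and -UVR of one product the counts were 3 for Organic (1.42%, beside 3.39%), 3 for TiO2 (1.42%, beside 6.65%) and 2 for ZnO (0.948%, beside 2.19%). The Olfr share was below that of all transcripts in 9 of the 10 comparisons, the exception being TiO2-UVR. Counted upward only, the Olfr share was above that of all transcripts in the 3 groups with the largest shifts. It held 17 genes in Organic + UVR (8.06%, beside 6.64%) and 27 in Organic-UVR (12.8%, beside 8.13%). In Control + UVR it held 18 (8.53%, beside 5.56%). This is no separate test, since direction and groups were picked from the same differences, most of them upward for Olfr genes there. The upward share of other dim transcripts alone is not given here. In TiO2-UVR all 9 genes were upward (4.27%), in TiO2 + UVR 4 were (1.90%), and in ZnO + UVR and ZnO-UVR 0. Without Organic-UVR replicate 1, 4 Olfr genes reached this p in Organic-UVR (1.90%, beside 9.18% of all transcripts).

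The called genes were Olfr1393, Olfr1364 and Olfr12 in Organic-UVR and Olfr16 in TiO2 + UVR. All code for odorant receptors. Olfr1393 (MOR256-24) and Olfr1364 (MOR256-13) belong to 1 subfamily but lie on chromosomes 11 and 13. Olfr12 (MOR208-5) lies on chr1:92619881-92621001.

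Olfr1393 read 6.99, 5.80, 5.81, 5.40, 5.38 and 5.49 in Organic-UVR replicates 1 to 6, against 4.89, 4.75, 4.70, 5.42, 5.41 and 5.08 in Control-UVR. The groups overlapped, since 2 Organic-UVR arrays lay just under the 2 highest Control-UVR arrays. The difference was 0.77 ± 0.23 (SE), with an adjusted p of 0.0818. With levels taken relative to the Olfr median of each array, the difference was 0.62. Without Organic-UVR replicate 1 the difference was 0.54 with an adjusted p of 0.419. Olfr1393 also had higher means in the other treated groups than in Control-UVR, by 0.61 in Organic + UVR and 0.46 in Control + UVR, by 0.30 in TiO2 + UVR and 0.32 in TiO2-UVR, and with ZnO by 0.45 (+UVR) and 0.33 (-UVR), none of them called. In Organic + UVR it read 6.46 and 6.51 in replicates 2 and 3 and between 5.03 and 5.45 in the other 4. In TiO2 + UVR it read 5.60, 5.70 and 6.08 in replicates 1 to 3 and 4.90, 4.97 and 4.83 in replicates 4 to 6, a split inside one group as wide as the difference between groups. Another 2 probesets shared by Olfr1393 and 4 paralogues had differences of 0.30 and 0.26 in Organic-UVR, with adjusted p-values of 0.364 and 0.406.

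Olfr1364 read 6.11, 4.94, 5.37, 4.94, 5.07 and 5.27 in Organic-UVR, against 4.91, 4.95, 4.76, 4.70, 4.68 and 4.89 in Control-UVR. Replicate 1 was the highest and 2 Organic-UVR arrays lay at the top of the Control-UVR range. The difference was 0.47 ± 0.15 (SE), with an adjusted p of 0.0974, and 0.33 with an adjusted p of 0.450 without replicate 1. In Organic + UVR, which received the same product, the mean was 4.82 ± 0.23, against 4.81 ± 0.12 in Control-UVR (SD, n = 6 each), a difference of 0.00 with a 95% interval of -0.30 to 0.30.

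Olfr12 read 4.89, 4.35, 3.85, 3.72, 3.80 and 4.07 in Organic-UVR, against 3.74, 3.67, 3.79, 3.66, 3.37 and 3.64 in Control-UVR. It was higher in Organic-UVR in 6 of 6 pairs of the same replicate number, by 0.47 ± 0.13 (SE), with an adjusted p of 0.0616, although 1 Organic-UVR array lay inside the Control-UVR range. Without replicate 1 the difference was 0.34 with an adjusted p of 0.321. The differences from Control-UVR in Organic + UVR (0.37), TiO2 + UVR (0.31) and TiO2-UVR (0.36) were of similar size and were not called.

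Olfr16 read 4.31, 5.64, 4.83, 4.22, 4.80 and 4.90 in TiO2 + UVR, against 5.66, 6.95, 6.21, 5.80, 5.16 and 4.49 in Control-UVR. The groups overlapped, and the Control-UVR arrays were the most spread of any group for this gene (SD 0.85, n = 6), with 0.51 in TiO2 + UVR (SD, n = 6). The difference was -0.93 ± 0.24 (SE), with an adjusted p of 0.0753, and it was -0.74 with an adjusted p of 0.331 without Control-UVR replicate 2. In 5 of 6 pairs of the same replicate number the level was lower in TiO2 + UVR. Every other group also had a lower mean than Control-UVR, with differences of -0.58 to -0.31 that were not called. Olfr16 ran against the upward shift of the family in Organic + UVR (-0.49), Organic-UVR (-0.38) and Control + UVR (-0.58).

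**Figure D5:**
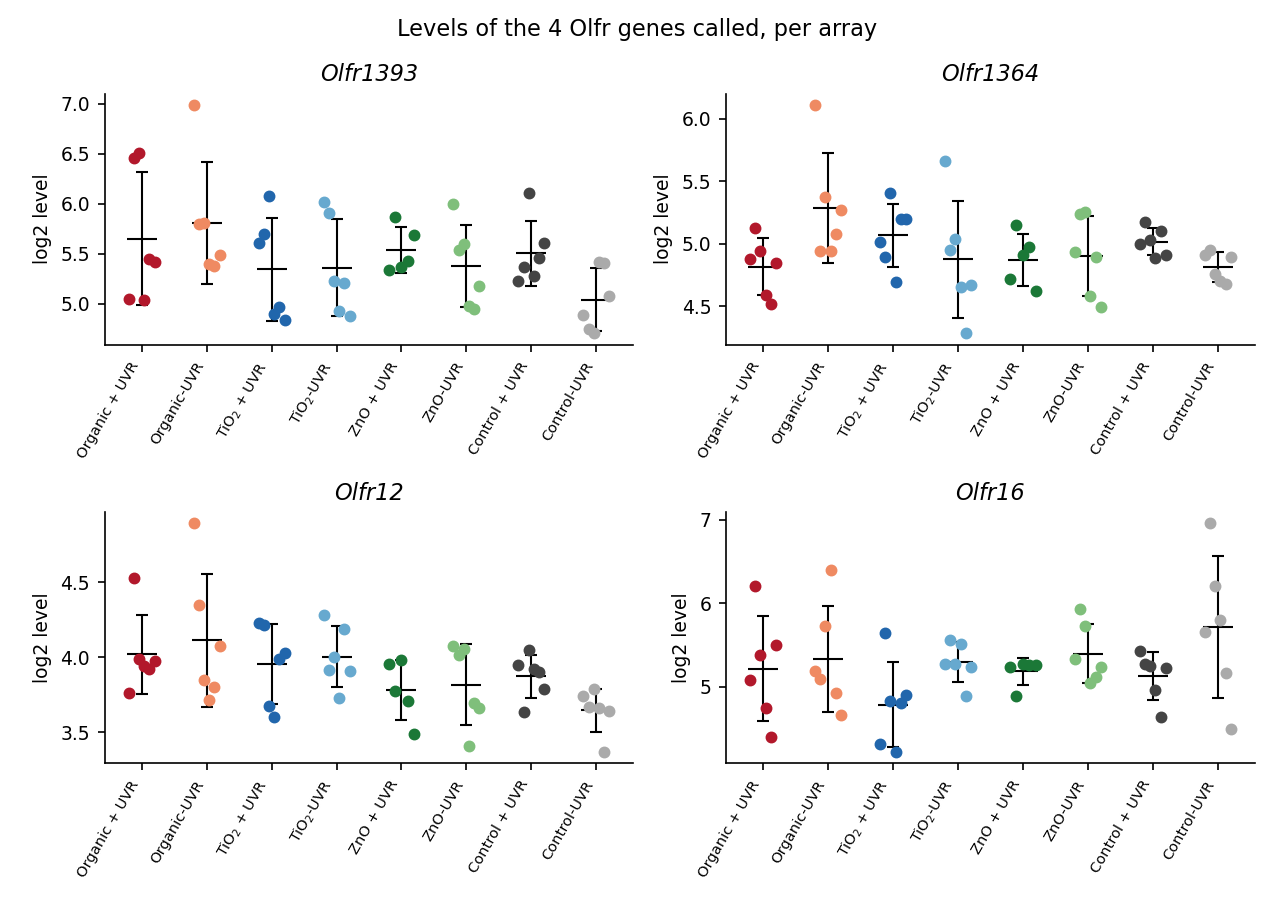
Log2 level (y axis) of Olfr1393, Olfr1364, Olfr12 and Olfr16 on each array, by group (x axis), with mean and SD. For Olfr1393, Olfr1364 and Olfr12 the highest array of Organic-UVR is replicate 1 (6.99, 6.11 and 4.89), and for Olfr16 the Control-UVR arrays spread from 4.49 to 6.95.

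Without the replicate number in the fit none of the 4 was called, with adjusted p-values of 0.161 for Olfr1393, 0.186 for Olfr1364, 0.142 for Olfr12 and 0.267 for Olfr16. In a fit of the 2 compared groups alone the adjusted p was 0.335 for Olfr1393, 0.337 for Olfr1364, 0.337 for Olfr12 and 0.122 for Olfr16. After quantile normalization Olfr1393, Olfr1364 and Olfr12 were not called (adjusted p of 0.143, 0.185 and 0.121), while Olfr16 was (0.0772).

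In the comparisons without a called member the smallest adjusted p-values belonged to differences of moderate size. Olfr398 read 4.94, 5.34, 5.18, 5.16, 4.82 and 5.11 in Organic + UVR, against 5.02, 4.28, 4.79, 4.56, 4.53 and 4.62 in Control-UVR. Its difference was 0.46 ± 0.14 (SE) with an adjusted p of 0.106, just outside the threshold. Olfr726 read 4.23, 3.46, 3.22, 3.22, 3.73 and 3.95 in Control + UVR, against 3.11, 3.13, 2.98, 3.05, 3.29 and 2.98 in Control-UVR. Its difference was 0.55 ± 0.17 (SE) with an adjusted p of 0.2499, and 4 of 6 Control + UVR arrays lay above all Control-UVR arrays. Olfr378 differed by 0.35 ± 0.12 (SE) in the same comparison, with an adjusted p of 0.265. Olfr322 read 5.23, 5.26, 5.16, 5.29 and 5.18 in ZnO + UVR, against 5.00, 5.04, 4.98, 4.84, 4.62 and 5.03 in ZnO-UVR. These groups did not overlap, but the difference of 0.31 ± 0.10 (SE) had an adjusted p of 1.00. The remaining named genes of these comparisons had adjusted p-values between 0.153 and 1.00.

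The counts in the organic groups turned on single arrays. In Organic + UVR 16 Olfr genes were called, all higher, without Organic + UVR replicate 1, which had one of the lowest Olfr medians of that group (3.49). That was 7.58% of the Olfr genes, beside 12.1% of all transcripts called and 4.73% called higher. In Organic + UVR 4 were called without Organic-UVR replicate 1 (1.90%, beside 5.88% called and 1.45% called higher), and 1 (0.474%) without Control-UVR replicate 5 (beside 3.75%) or without Organic + UVR replicate 5 (beside 2.91%). In Organic-UVR 7 were called without replicate 3 (3.32%, beside 6.00% called and 1.67% called higher), 6 without replicate 5 (2.84%, beside 6.31% and 1.93%) and 0 without replicate 1 (beside 0.672%). Leaving out Control-UVR replicate 1, 2 or 6 also gave 0 in Organic-UVR, and leaving out Control-UVR replicate 3 gave 1 (0.474%, beside 2.34%). For TiO2 + UVR the call of Olfr16 was lost without replicate 1, 3, 4 or 6 of TiO2 + UVR or replicate 1, 2, 3 or 4 of Control-UVR. In Control + UVR 1 was called without replicate 2 (0.474%, beside 0.275%).

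Among Olfr probesets that carry several symbols the median difference from Control-UVR was larger than among members, at 0.21 in Organic + UVR, 0.26 in Organic-UVR (0.04 without its replicate 1) and 0.22 in Control + UVR. Of these 33, 1 was called in Organic-UVR, and it was lower. Beside it, 3.27% of all 9815 transcripts were called in that comparison, 248 of them lower. The probeset shared by Olfr56 and Ifi47, an interferon-induced GTPase gene, had a difference of -0.63 in Organic-UVR, with an adjusted p of 0.0393 by limma, and of -0.55 with an adjusted p of 0.184 without Organic-UVR replicate 1. Which of the 2 genes it read was not tested.

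By subfamily, 25 of 26 MOR256 genes and 17 of 17 MOR135 genes had a higher level in Organic-UVR than in Control-UVR, beside 88.2% of all Olfr genes and 55.4% of all transcripts, with median differences of 0.19 and 0.14. Without Organic-UVR replicate 1 these counts were 17 of 26 and 9 of 17, beside 130 of 211 Olfr genes, and the medians were 0.04 and 0.01. The 5 MOR208 genes, which include the called Olfr12, had the largest median in Organic-UVR of the 15 subfamilies with at least 5 members. It was 0.37 in Organic-UVR (0.29 without its replicate 1), 0.31 in Organic + UVR and 0.06 in Control + UVR. In TiO2 + UVR it was 0.23, in TiO2-UVR 0.10, in ZnO + UVR 0.09 and in ZnO-UVR 0.03. MOR208 was picked as the highest of 15, so its size is no test. Probesets of near-identical paralogues can bind the same transcript, so members of a subfamily are not independent readings.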

How the data were processed

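The values are log2 levels that the authors deposited after robust multi-array average (RMA) of 47 Affymetrix Mouse Gene 1.0 ST arrays of mouse liver. Per the paper, each processing batch held 1 chip of each group and batch effects were removed. Whether this had been done to the deposited values is not given in the sources used here. RMA sets all arrays to a common distribution of probe signals before it sums the probes of a set. Of 16383 probesets, 6568 are control probesets and stayed out of the tests. The 9815 transcripts tested are part of the array, and other transcripts were not analysed here.

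A limma 3.58.1 model in R 4.3.3 had terms for group and replicate number and left 34 residual degrees of freedom. P-values were adjusted by Benjamini-Hochberg over 9815 transcripts in each of the 10 comparisons, and genes were called under 0.1. The model was tested before use on simulated data with independent errors in each transcript. That simulation had no outlying array and no genes that move together, so it does not cover these features of the data. Shifts and array medians of the family are descriptions without a test. Named genes were the called members (at most 8 in each direction of a comparison) and the 3 with the smallest p where none was called. Also named were the 5 brightest, the 5 dimmest, the 3 with the largest residual SD of the model, and Olfr1393. Members and lists were chosen with earlier results of these data known. The number of arrays limits the precision. A p-value sets a difference against the spread between arrays. With 1 array per mouse this spread holds both mouse and array variation. Alternatives were other fits, scalings, filters and summaries and leaving out each array, and the array slope as a covariate, and values of subfamilies, other dim sets and the interaction without Organic-UVR replicate 1, were added after seeing the data.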

Additional observations from a re-analysis of the deposited data

Results flagged for a closer look

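In 296 groups of arrays (the Olfr median, the array range and the 35 named genes, each in the 8 groups), the gap between the highest or lowest array and the rest was set against Dixon's 95% critical value, and 32 exceeded it. Chance passes about 1 in 20 such groups where genes are picked without regard to their values. That rate does not apply here, since named genes were chosen in part for a large SD or a difference that 1 array can make, and Olfr genes move together.

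Of these 32, 9 were values of Organic-UVR replicate 1. Its Olfr median was 4.38, against 3.42 to 3.68 on the other 5 arrays, and its range from Olfr genes to liver markers was 7.14, against 8.39 to 8.65. On this array Olfr1393 read 6.99 (5.38 to 5.81 on the others), Olfr1364 6.11 (4.94 to 5.37) and Olfr432 5.70 (4.64 to 4.75). Olfr51 read 3.67 (2.95 to 3.13), Olfr54 by its brighter probeset 7.48 (5.71 to 6.28), Olfr462 6.89 (5.61 to 6.08) and Olfr401 6.87 (5.62 to 6.06).

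In Organic + UVR replicate 4, which had the highest Olfr median of its group, Olfr183 read 3.55 (1.87 to 2.14 on the others), Olfr804 3.10 (1.70 to 1.98), Olfr803 3.17 (2.13 to 2.51) and Olfr1367 4.41 (3.41 to 3.65), while Olfr401 read 4.24, below 5.43 to 6.13. In Organic + UVR replicate 2, Olfr12 read 4.53 (3.76 to 3.99) and Olfr462 6.54 (5.74 to 6.01). In the same group Olfr393 read 2.76 in replicate 3 (2.32 to 2.47), and Olfr744 read 3.91 in replicate 1, below 4.31 to 4.50.

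In TiO2 + UVR replicate 4, Olfr432 read 4.96 (4.60 to 4.66) and Olfr398 4.21, below 4.73 to 5.01. In TiO2-UVR replicate 1, the 2nd highest array by Olfr median, Olfr401 read 6.19 (5.75 to 5.83) and Olfr745 4.80 (3.61 to 3.82). In ZnO + UVR, Olfr803 read 3.06 in replicate 1 (1.93 to 2.20), and Olfr16 read 4.89 in replicate 2, below 5.23 to 5.27.

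In Control + UVR replicate 1, Olfr166 read 5.88 (3.79 to 4.57), Olfr1367 4.38 (3.49 to 3.67), Olfr747 3.00 (2.03 to 2.35) and Olfr722 2.60 (1.95 to 2.16). In Control + UVR replicate 2, which had the lowest Olfr median of its group, Olfr745 read 3.49, below 4.33 to 4.60. In Control-UVR replicate 5, Olfr12 read 3.37, below 3.64 to 3.79, while Olfr745 read 4.53, above 3.54 to 3.81. In Control-UVR replicate 2, Olfr722 read 2.54 (1.93 to 2.15).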

How the results depend on the processing

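The replicate numbers of the labels were in the fit as a block. Same-numbered arrays of different groups had a mean correlation of their deviations of 0.15, with 103 of 161 pairs over 0.1, against -0.03 and 222 of 805 for other pairs, so the data only hint at a pairing. Without the replicate block the count of Olfr genes called fell to 0 in Organic-UVR and in TiO2 + UVR against Control-UVR, and no other count changed. The 2 groups alone, and a threshold of 0.05, also gave 0 in both. In Organic-UVR quantile normalization and the array slope as a covariate gave 0, and this covariate gave a median difference of -0.040 there and 1 called gene in TiO2 + UVR against TiO2-UVR (0.474%, beside 1.86%). Array weights gave 26 called genes in Organic + UVR (12.3% of the Olfr genes, all higher, beside 14.9% of all transcripts called and 5.81% called higher), 2 in TiO2 + UVR (0.948%, beside 3.99%) and 4 in Control + UVR (1.90%, all higher, beside 3.62% called and 1.17% called higher). Leaving out the dimmest 25% of transcripts, which tests fewer genes, gave 1 of 73 Olfr genes in Organic + UVR (1.37%, beside 4.35%). Leaving out 1 array gave 0 to 16 called genes in Organic + UVR, 0 to 7 in Organic-UVR, 0 to 1 in TiO2 + UVR and 0 to 1 in Control + UVR, and 0 in the other comparisons. Array weights lower the part of discordant arrays; otherwise the cause was not tested.

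The range of an array, taken as the 90th minus the 10th percentile of all tested transcripts, averaged 5.20 in Organic + UVR, 5.19 in Organic-UVR, 5.31 in TiO2 + UVR, 5.34 in TiO2-UVR, 5.43 in ZnO + UVR, 5.46 in ZnO-UVR, 5.23 in Control + UVR and 5.48 in Control-UVR, a different quantity from the distance to liver markers. The mean in place of the median over Olfr genes gave levels of 3.71 in TiO2 + UVR, 3.65 in ZnO + UVR and 3.64 in Control-UVR, and a distance to liver markers of 8.46 in ZnO + UVR. All other median differences moved by less than the pooled SD between arrays of a group (0.184). Other levels and distances moved by less than the SD of their own group. For the median differences this cannot show stability. The largest of them was 0.15, so even the loss of the whole difference would stay under 0.184. No called gene changed direction. How bright a probeset must be to stand above background was not known for these arrays.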

Other observations

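The UVR effect of each product was set against that of Control in the same limma fit (3 interaction tests). No Olfr gene was called in any, while 17 of 9815 transcripts were called for TiO2 and 0 for Organic and ZnO. At an unadjusted p under 0.05 there were 11 Olfr genes for Organic (5.21%, beside 7.43% of all transcripts), 9 for TiO2 (4.27%, beside 8.49%) and 7 for ZnO (3.32%, beside 3.79%). The median Olfr interaction was -0.16 for Organic, -0.17 for TiO2 and -0.14 for ZnO, with Control + UVR and Control-UVR shared by all 3. Without Organic-UVR replicate 1 it was -0.03 for Organic, with 5 Olfr genes at this p (2.37%, beside 4.19%). The smallest p belonged to Olfr1364 for Organic, with an interaction of -0.67 and an adjusted p of 0.598 (-0.53 and 1.00 without this array).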
